A study of Homo sapiens with 9 samples.

Results

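Of the 24037 QKI-5 peaks in the list, 362 lay wholly inside a coding sequence (CDS) exon, and these CDS peaks are described here. A peak was counted when its whole span, from start to end, fell within a single CDS exon of a protein_coding transcript carrying the basic tag of GENCODE release 44, on the strand of the peak. They made up 1.51% of the 24019 peaks on nuclear chromosomes (95% Wilson interval 1.36 to 1.67%). For comparison, 1689 peaks lay wholly inside a 3′UTR, 387 ran across an exon-intron boundary and 17708 were intronic. The CDS peaks fell in 259 genes, or 1.31% of the 19825 protein-coding genes examined. The plus strand carried 186 of them and the minus strand 176.

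HITS-CLIP crosslinks a protein to RNA in living cells with ultraviolet light, pulls the protein down with an antibody and sequences the attached RNA fragments. The cells were mesHMLE, a mesenchymal derivative of the immortalised human mammary epithelial line HMLE that arose under prolonged TGF-β1, although the labels call the cell type breast cancer. HMLE cells were driven into EMT with TGF-β1 at 2.5 ng/ml over 14 days or longer, mesHMLE cells were then kept without added TGF-β1, and crosslinking used 600 mJ/cm2. There were 7 libraries from immunoprecipitation with an antibody specific for QKI-5, 3 cut from the monomer region of the gel and 4 from the presumptive dimer region, of which 1 was made with SuperScript IV, and 2 size-matched input libraries. All were technical replicates of 1 cell line and were pooled before peaks were called against the input. The list therefore holds 1 height per peak, a signal of the pooled libraries, with no spread between replicates and no depth per library. Intervals below cover counting error over peaks only, and peaks of a gene or exon are not independent of each other.

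QKI belongs to the STAR group of RNA-binding proteins, and its QKI-5 isoform is nuclear. QKI proteins recognise the RNA sequence ACUAAC, written ACTAAC in the genome, and the shorter core UAAC. QKI-5 is best known for regulating alternative splicing from sites in introns next to exons, whereas its cytoplasmic isoforms are known for binding 3′UTRs. A site inside a CDS exon lies in sequence that also encodes protein and remains in the mature mRNA.

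The sequences below are from GRCh37 (hg19), written 5′ to 3′ on the strand of the peak. The first set is shown because these CDS peaks held the QKI motif, and capitals mark each ACTAAC and each CTAAC, its 3′ 5 nt. They were the TASOR2 peak (chr10:5762235-5762359, plus strand, exon 7 of 25), the RAB11FIP5 peak (chr2:73308579-73308682, minus strand, exon 4 of 6), the SEC22C peak (chr3:42594748-42594797, minus strand, exon 7 of 7), the PCNX2 peak (chr1:233394056-233394097, minus strand, exon 5 of 34) and the ADGRG6 peak (chr6:142704904-142704967, plus strand, exon 6 of 25).
TASOR2: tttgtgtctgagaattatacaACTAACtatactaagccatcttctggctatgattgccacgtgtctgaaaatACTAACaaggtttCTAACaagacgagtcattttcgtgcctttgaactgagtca
RAB11FIP5: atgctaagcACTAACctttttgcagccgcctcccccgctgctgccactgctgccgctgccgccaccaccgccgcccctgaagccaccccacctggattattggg
SEC22C: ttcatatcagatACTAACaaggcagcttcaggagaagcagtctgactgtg
PCNX2: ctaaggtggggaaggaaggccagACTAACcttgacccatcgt
ADGRG6: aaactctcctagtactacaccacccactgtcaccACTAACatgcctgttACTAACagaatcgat
TASOR2 and ADGRG6 each held the whole motif at 2 places, and no other CDS peak did.

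The second set is shown because 2 tall CDS peaks held the 5-nt core CTAAC 3 times each without a whole ACTAAC. They were the DOT1L peak (chr19:2227999-2228089, plus strand, exon 28 of 28) and the SMARCC2 peak (chr12:56558165-56558347, minus strand, exon 28 of 29), and capitals again mark CTAAC.
DOT1L: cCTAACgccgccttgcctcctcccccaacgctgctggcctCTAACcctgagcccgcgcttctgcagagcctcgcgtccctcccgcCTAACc
SMARCC2: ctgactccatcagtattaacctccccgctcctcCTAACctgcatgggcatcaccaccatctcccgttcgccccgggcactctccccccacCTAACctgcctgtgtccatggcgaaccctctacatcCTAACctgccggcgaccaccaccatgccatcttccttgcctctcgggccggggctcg
In SMARCC2 each copy of the core was followed by CTGC.

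The last set is shown because tall peaks also occurred without the motif. These were the HTT peak (chr4:3076717-3076773, plus strand, exon 1 of 67), the taller POLR2A peak (chr17:7416491-7416701, plus strand, exon 29 of 30), the HNRNPH1 peak (chr5:179046296-179046402, minus strand, exon 5 of 14) and the tallest NASP peak (chr1:46073881-46073953, plus strand, exon 6 of 15), none of which held CTAAC. The POLR2A exon numbers are those of the gene model, whose final pair of exons may be a single exon.
HTT: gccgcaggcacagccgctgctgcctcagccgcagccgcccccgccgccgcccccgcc
POLR2A: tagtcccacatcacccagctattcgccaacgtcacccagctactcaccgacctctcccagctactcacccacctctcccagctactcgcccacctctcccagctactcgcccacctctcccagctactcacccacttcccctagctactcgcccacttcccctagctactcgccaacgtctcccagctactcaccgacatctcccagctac
HNRNPH1: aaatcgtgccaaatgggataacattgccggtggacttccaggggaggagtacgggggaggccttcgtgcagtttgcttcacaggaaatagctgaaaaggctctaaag
NASP: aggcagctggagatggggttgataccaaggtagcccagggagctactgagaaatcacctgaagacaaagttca
Of these peaks only that of HNRNPH1 held the shorter core TAAC, at 1 place. The HTT and POLR2A sequences were internally repetitive. In the POLR2A peak 87.4% of bases equalled the base 21 nt before them, the length of 7 codons, and in the HTT peak the share was 72.2%. The HTT peak is only 57 nt wide with 86.0% GC. Other distances were not tested, so its share does not show a repeat of 7 codons.

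CDS peaks were mostly low, with a few very tall exceptions. Their heights ran from 6 to 943 with a median of 22 and quartiles of 17 and 29. The tallest was that of HTT, which encodes huntingtin and whose first exon codes for the polyglutamine and polyproline tracts, with a height of 943. POLR2A, the largest subunit of RNA polymerase II, followed with adjacent peaks of 428 and 174 in the exon that encodes much of its C-terminal heptad repeat domain. PHACTR4, a regulator of protein phosphatase and actin, had a peak of 182, and PRRT2, a proline-rich transmembrane protein, one of 162 that also overlapped another protein-coding gene on the strand, so its gene is uncertain. After HTT and POLR2A no CDS peak was above 182.

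The remaining genes among the 10 with the tallest CDS peaks were HNRNPH1, DOT1L, BORCS8, TASOR2, NASP and SMARCC2. HNRNPH1, a splicing factor that binds G-rich RNA, had a height of 129 and DOT1L, a histone methyltransferase, 103. BORCS8, a subunit of a complex that positions lysosomes, had a height of 98, but that peak also overlapped MEF2B and the readthrough gene BORCS8-MEF2B on the same strand, so its gene is uncertain. TASOR2, a relative of the silencing factor TASOR, had a height of 94, the histone chaperone NASP 87 and SMARCC2, a subunit of BAF chromatin remodelling complexes, 86. In all, 29 of the 362 CDS peaks overlapped another annotated gene on their strand, 24 of them another protein-coding gene.

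**Figure D1:**
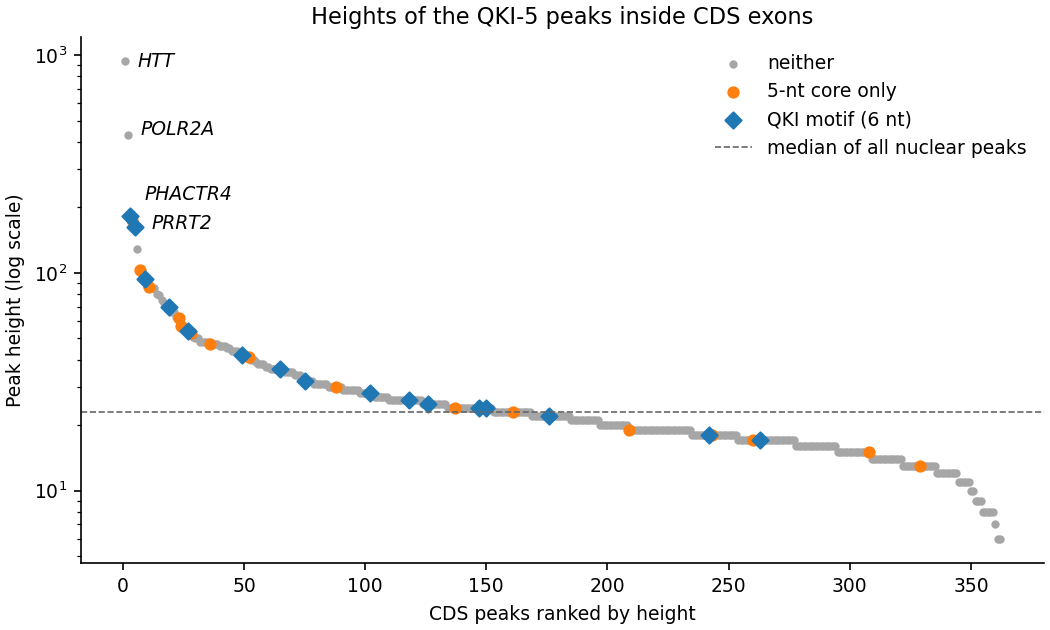
Height (log scale) of each of the 362 CDS peaks against its rank, with peaks that held ACTAAC as diamonds, those with only its 5-nt core CTAAC as orange circles and the rest in grey. The dashed line is the median height of all nuclear peaks, 23, and 13 of the 16 diamonds lie on or above it.

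CDS peaks were lower than peaks of the other classes. A height of at least 23, the median of all nuclear peaks, was reached by 168 of 362 CDS peaks (46.4%), 981 of 1689 3′UTR peaks (58.1%), 238 of 387 boundary peaks (61.5%) and 9218 of 17708 intronic peaks (52.1%). The odds ratio against 3′UTR peaks was 0.625 (95% interval 0.498 to 0.785; Fisher's exact test, two-sided, p = 5.5e-05, adjusted p = 0.00015 over 11 tests). Against boundary peaks it was 0.543 (0.406 to 0.726; Fisher's exact test, p = 3.9e-05, adjusted p = 0.00014). Against intronic peaks it was 0.798 (0.648 to 0.983; Fisher's exact test, p = 0.034, adjusted p = 0.041). This difference depended on the setting. The call was lost when peaks were assigned by their centre (odds ratio 0.935, Fisher's exact test, adjusted p = 0.5). Leaving out peaks that overlapped an intron or UTR of another transcript also lost it (0.812, Fisher's exact test, adjusted p = 0.18). With 1 peak per gene, the tallest, the odds ratio was 0.407 (Fisher's exact test, adjusted p = 1.2e-10). The tallest of many peaks tends to be higher than the tallest of few. Most genes with a CDS peak had a single one (206 of 259), whereas a gene could hold many intronic peaks (182 in NAV2). That setting therefore cannot decide whether CDS peaks are lower than intronic peaks. Median width was 57 nt for CDS peaks, 60 nt for 3′UTR, 80 nt for boundary and 61 nt for intronic peaks, and the rule itself limits a CDS peak to the length of its exon.

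The QKI motif was found in few CDS peaks, but more often than in the coding sequence beside them. ACTAAC occurred in 16 of 362 CDS peaks (4.42%, 95% Wilson interval 2.74 to 7.06%), in 16 different genes. Read on the other strand, 0 of 362 peaks held it, which allows up to 1.05% (upper Wilson limit). Each peak was then set beside a window of its own length directly 5′ and another directly 3′, in the same CDS stretch and free of other peaks. Among 170 peaks with a 5′ window, 8 held the motif and 0 windows did (exact McNemar test, p = 0.0078, adjusted p = 0.012). Among 151 with a 3′ window the counts were 9 and 0 (exact McNemar test, p = 0.0039), and the larger of both p-values was the one adjusted. The result no longer passed at an adjusted p of 0.083 with peaks of height 23 or more only, or 0.18 with peaks that overlapped no other intron or UTR, where 6 and 4 motif peaks, respectively, had such a window and still 0 windows held the motif. With only 4 such peaks the exact McNemar test could not have passed whatever the windows held, so that setting decides nothing.

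The same contrast was seen against every possible position. Of the 617172 windows of 57 nt, the median CDS peak width, that can be placed in the CDS of the 259 genes, 0.43% held ACTAAC, against 4.42% of the CDS peaks. Over the CDS of all genes the share was 0.323%. Peaks with the motif were wider than the window, with a median of 82 nt, so this comparison is a description without a test. The shorter core CTAAC occurred in 33 CDS peaks (9.12%, 6.56 to 12.5%) and in 1.74% of the windows in these genes.

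Compared with other peak classes, CDS peaks were poor in the motif. ACTAAC was present in 8.53% of 3′UTR peaks (144 of 1689), 13.4% of boundary peaks (52 of 387) and 10.7% of intronic peaks (1900 of 17708). The odds ratios of CDS peaks were 0.509 against 3′UTR peaks (95% interval 0.302 to 0.859; Fisher's exact test, two-sided, p = 0.0068, adjusted p = 0.012), 0.304 against boundary peaks (0.172 to 0.54; p = 1.9e-05, adjusted p = 0.00014) and 0.396 against intronic peaks (0.241 to 0.651; p = 3e-05, adjusted p = 0.00014). Base composition moved with these classes: median GC content was 59.5% in CDS peaks, 52.6% in 3′UTR, 56.6% in boundary and 50.8% in intronic peaks, and its part in the difference was not tested. Among peaks of height 23 or more the odds ratio was 0.779 against 3′UTR peaks (adjusted p = 0.64) and 0.549 against intronic peaks (adjusted p = 0.083), and neither passed Fisher's exact test.

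**Figure D2:**
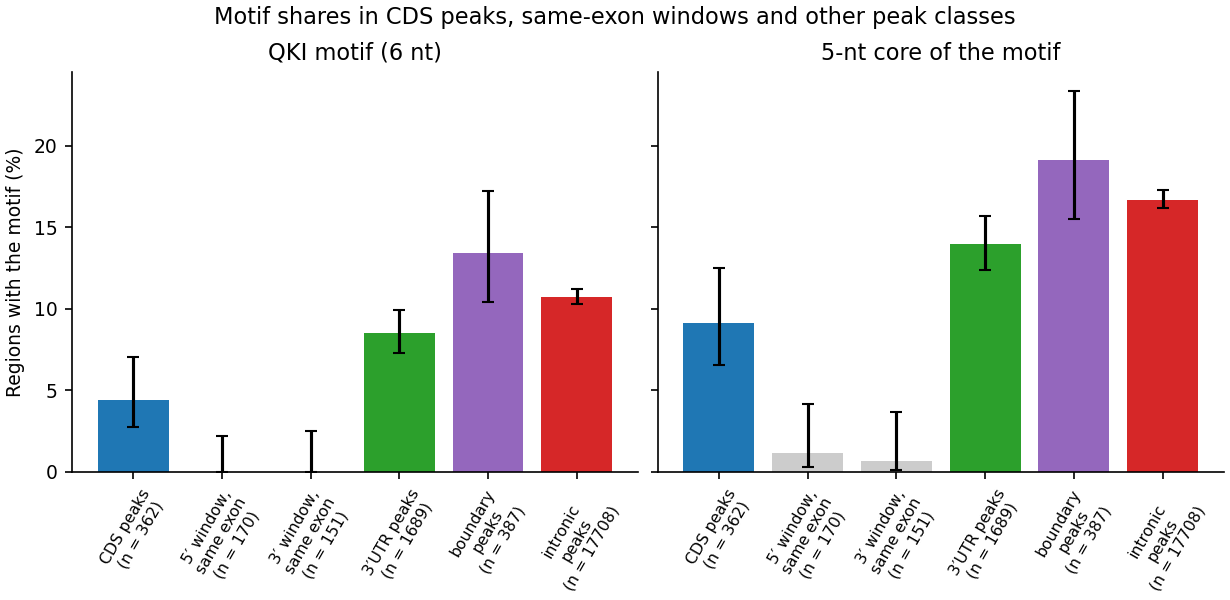
Share of regions (%) that held the whole motif ACTAAC (left) or its 5-nt core CTAAC (right), with 95% Wilson intervals, in CDS peaks, in windows of the same length in the same exon, and in the other peak classes. No window held ACTAAC, and the CDS bar at 4.42% is below those of 3′UTR, boundary and intronic peaks at 8.53, 13.4 and 10.7%.

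Taller CDS peaks held the motif more often. Of the 184 CDS peaks at or above their own median height of 22, 14 held ACTAAC (7.61%), against 2 of 178 below it (1.12%). The odds ratio was 6.00 (95% interval 1.54 to 23.4; Fisher's exact test, two-sided, p = 0.0035, adjusted p = 0.0077). At heights of 50 or more it was present in 5 of 31 CDS peaks (16.1%, 7.09 to 32.6%), and CTAAC in 11 of 31 (35.5%, 21.1 to 53.1%). Motif peaks had a median height of 30 and the others 21, with ranges of 17 to 182 and 6 to 943. The median width of motif peaks was 82 nt and that of all CDS peaks 57 nt, and the part of width in the difference was not tested beyond the search of equal lengths around the summit, given next. The odds ratio was 3.55 when sequence 50 nt on either side of the summit was searched in place of the whole peak, and 3.83 with 1 peak per gene (Fisher's exact test, adjusted p = 0.026 for each). When only CDS peaks free of other introns and UTRs were kept it was 2.37 (adjusted p = 0.32 by the same exact test).

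Motif sites lay close to the summit and mostly on its 5′ side. In the same CDS stretch as a CDS peak summit, 22 ACTAAC sites on the strand of the peak lay within 250 nt, 15 of them within 25 nt, whereas 0 of 4 sites on the opposite strand lay within 25 nt (Fisher's exact test, two-sided, p = 0.022, adjusted p = 0.03). This rests on few sites: the odds ratio of 18.6 had an interval of 0.882 to 392, and the adjusted p was 0.064 with 1 peak per gene. Of the 18 sites inside CDS peaks, 15 were 5′ of the summit, with a median position of -13.5 nt, where negative is 5′. The sites in PCNX2, at 2 nt, and ADGRG6, at 3 and 18 nt, were the 3 on the other side. The other classes showed the same side: 120 of 154 sites in 3′UTR peaks (median -11 nt), 41 of 59 in boundary peaks (median -9 nt) and 1631 of 2081 in intronic peaks (median -11 nt) were 5′ of the summit. Per the study's methods, reads were shifted and extended when peaks were called, which affects where a summit is placed. The part of this setting in the side of the sites was not tested.

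**Figure D3:**
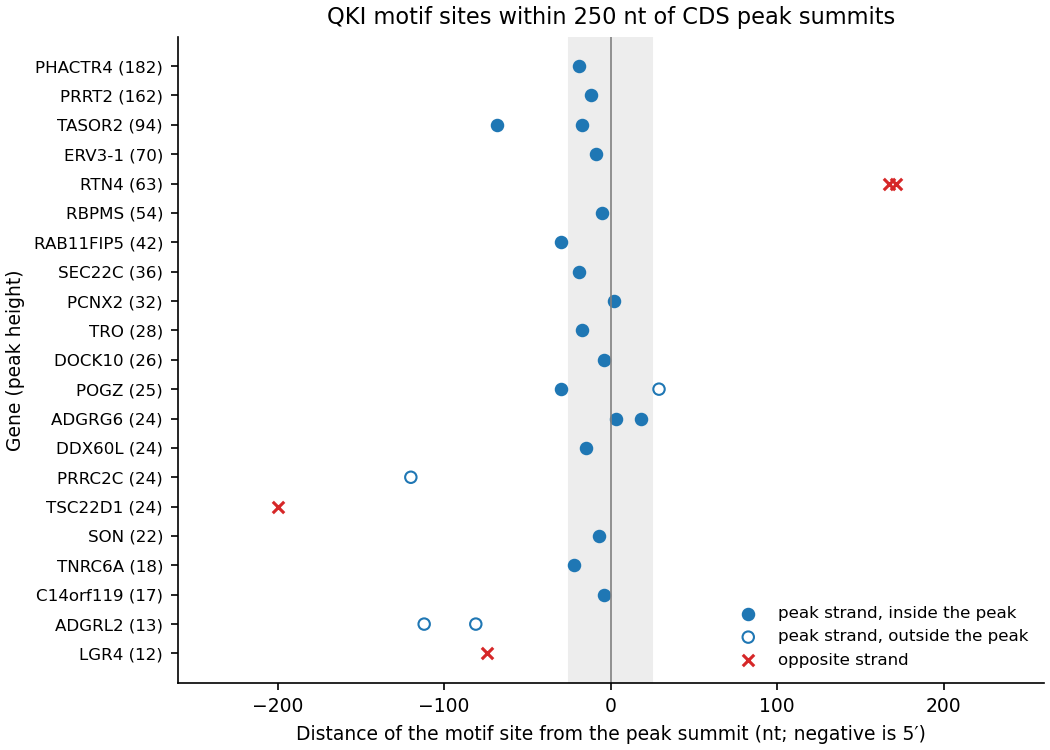
Position of each ACTAAC site within 250 nt of a CDS peak summit in the same coding stretch, 1 row per gene ordered by peak height (in brackets). Filled circles are sites inside the peak, open circles sites on its strand outside it and crosses sites on the opposite strand, and the shaded band spans 25 nt on either side of the summit, where 15 sites on the peak strand and none on the opposite strand fall.

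The 16 motif peaks differed widely in height. After PHACTR4 (182), PRRT2 (162) and TASOR2 (94) came ERV3-1, a gene of retroviral origin, at 70, whose peak also overlapped ZNF117 on the strand and so has an uncertain gene, and RBPMS, an RNA-binding protein, at 54. RAB11FIP5, an effector of the recycling endosome GTPase RAB11, had a height of 42, SEC22C, a vesicle trafficking protein of the endoplasmic reticulum, 36 and PCNX2 32. The other 8 motif peaks, in TRO, DOCK10, POGZ, DDX60L, ADGRG6, SON, TNRC6A and C14orf119, had heights of 17 to 28. The motif sites in PRRT2, TASOR2, RBPMS, RAB11FIP5, SEC22C, TRO, ADGRG6 and SON also lay in an intron of a basic coding transcript. Those in the other motif genes did not.

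Sites in CDS peaks and other sites were divided into codons in similar proportions. Within the canonical CDS of these genes, 14 sites lay in CDS peaks, and the codons were divided as ACT-AAC at 10 of them and as A-CTA-AC at 4. At the 46 other ACTAAC sites in the same coding sequences the numbers were 33 and 13, and the remaining division, which would place a TAA stop codon in frame, had 0 in either set. The odds ratio of the first division was 0.94 (95% interval 0.263 to 3.36; Fisher's exact test, two-sided, p = 1, adjusted p = 1), an interval that holds differences of more than 3 times in either direction.

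Many of these coding exons are not coding in every transcript. In the canonical transcript of the gene, 319 of the 362 peaks were again wholly inside a coding exon, 30 were intronic, 7 lay in an exon that was partly or wholly UTR and 4 crossed an exon-intron boundary. Of all CDS peaks, 137 (37.8%, 33.0 to 42.9%) overlapped an intron of some basic coding transcript on the strand, compared with 19.2% of all 57-nt windows in the CDS of these genes. Within an exon that another transcript of the same gene spliced out whole there were 99 CDS peaks (27.3%, 23.0 to 32.2%). Counting only peaks in canonical coding exons, the share in such exons was 24.1%, and the share of windows in the canonical coding exons of the same genes was 12.2%. These shares are given without a test because peaks of an exon are not independent: the NASP exon alone contributed 9.

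The tallest CDS peaks in exons that another transcript lacked were those of HTT, DOT1L, TASOR2, NASP and ERBIN. The DOT1L peak (103), the TASOR2 peak (94) and the ERBIN peak (75), in a gene for a protein of the basolateral membrane, were intronic in the canonical transcript, so that their CDS assignment depends on a transcript other than the canonical one. The PRRT2 motif peak ran from the end of a coding exon into the following intron in the canonical transcript. ACTAAC itself was about as frequent in peaks of skipped exons, 4 of 99 (4.04%), as in those of exons overlapped by no intron of the gene, 8 of 213 (3.76%). The odds ratio was 1.14 (95% interval 0.354 to 3.66; Fisher's exact test, two-sided, p = 1, adjusted p = 1), so that a difference of 3 times either way was within the interval.

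CDS peaks often stopped exactly at the 3′ end of their exon. The end of the peak and the end of the exon coincided for 36 of 286 peaks in exons followed by an intron, with 19 more ending 1 to 10 nt before it. At the 5′ end the start coincided for 8 of 326 peaks in exons preceded by an intron, with 26 starting 1 to 10 nt after it. In total 42 peaks (11.6%, 8.70 to 15.3%) reached a spliced exon end, 2 of them at both ends. For peaks in canonical coding exons the share was 11.3%, against 1.46% of 57-nt windows in those exons. Among the 42 were the peaks of BORCS8 (98), ZNF283 (85), MYOF (32), VCL (26), SPAG9 (21) and COL1A1 (20). These peaks were narrow, with a median width of 37 nt, their median height was 21, and 0 of 42 held ACTAAC (which allows up to 8.38%). Of the 42, 1 (2.38%, 0.422 to 12.3%), in ISY1, had a peak of the list at the junction in the exon spliced to it. The reads are not in the list, so whether fragments continued across the junction was not tested.

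**Figure D4:**
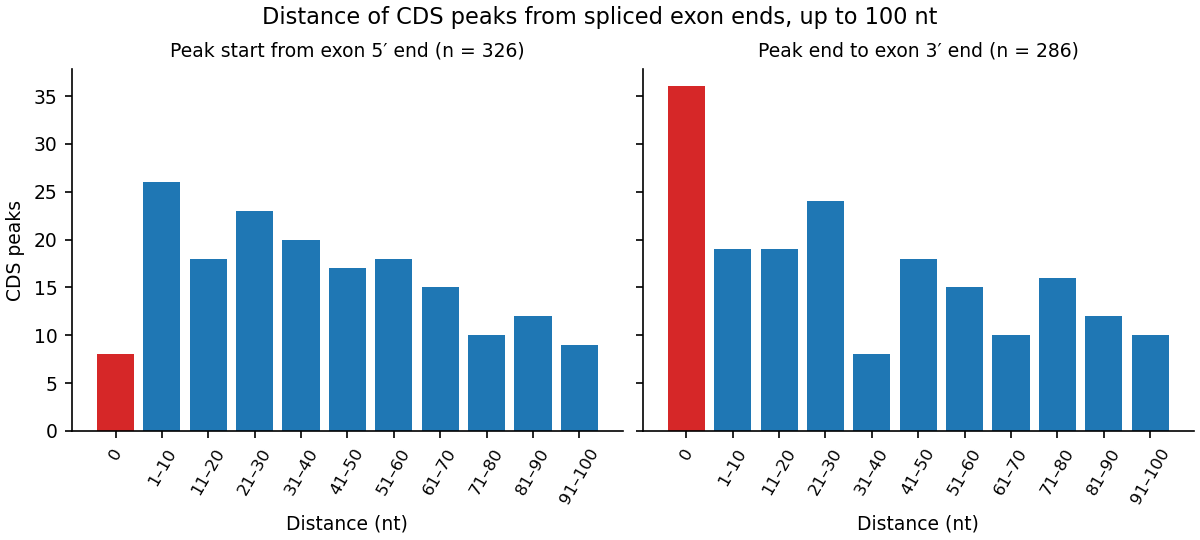
Number of CDS peaks by the distance (nt) of the peak start from the 5′ end of an exon preceded by an intron (left) and of the peak end from the 3′ end of an exon followed by an intron (right). Red bars are peaks at a distance of 0, with 8 on the left and 36 on the right.

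Within the protein, CDS peaks were spread over the whole length. With each CDS cut into 3 equal lengths from start to stop, 109 peaks were centred in the first, 110 in the middle and 143 in the last, and 0 held the start codon. The first coding exon held 47 peaks, internal coding exons 229, the last coding exon 73 and single coding exons 13. No peak of a first coding exon held ACTAAC or CTAAC (0 of 47, which allows up to 7.56%), while in internal coding exons 9 of 229 peaks held ACTAAC and in last coding exons 5 of 73. The exons had a median length of 328.5 nt for all CDS peaks and 304 nt for those in canonical coding exons, where the window-weighted median was 239 nt over the same genes and 313 nt over all coding genes.

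The CDS peaks came from 293 exons, and 44 exons held more than 1. Of the 259 genes, 206 had 1 CDS peak, 27 had 2 and 26 had 3 or more. NASP had the most, with 9 peaks in a single exon of 1017 nt that another NASP transcript skips. From 5′ to 3′ their heights were 29, 14, 23, 48, 85, 18, 15, 44 and 87, and none held CTAAC. The tallest peaks of NASP thus lay in the middle and at the 3′ end of the exon. POLR2A followed with 7 peaks, of heights 36, 428, 174, 17, 48, 13 and 19 in order along the gene. The last 6 of them lay in the final pair of exons of the gene model. In that model the first of the pair ends at 7417085 and the second begins at 7417094. This gap is too short for an intron, so the pair may be a single exon.

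ENAH, an actin regulator that promotes filament elongation, had 6 peaks in 2 coding exons. In exon 5 they measured 25, 19 and 55 from 5′ to 3′, and in an alternative exon that is intronic in the canonical transcript 16, 24 and 47. In both exons the tallest peak was the one nearest the 3′ end. PRRT2 and DOT1L had 5 each, and 4 of those of DOT1L, with heights of 45, 103, 53 and 46, were next to each other in its alternative last exon. Across all CDS peaks, 174 (48.1%, 43.0 to 53.2%) had another peak of the list within 100 nt on the strand, and 143 (39.5%) had none within 1000 nt. The same shares over all nuclear peaks were not computed, so whether CDS peaks lie closer together than others was not tested.

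**Figure D5:**
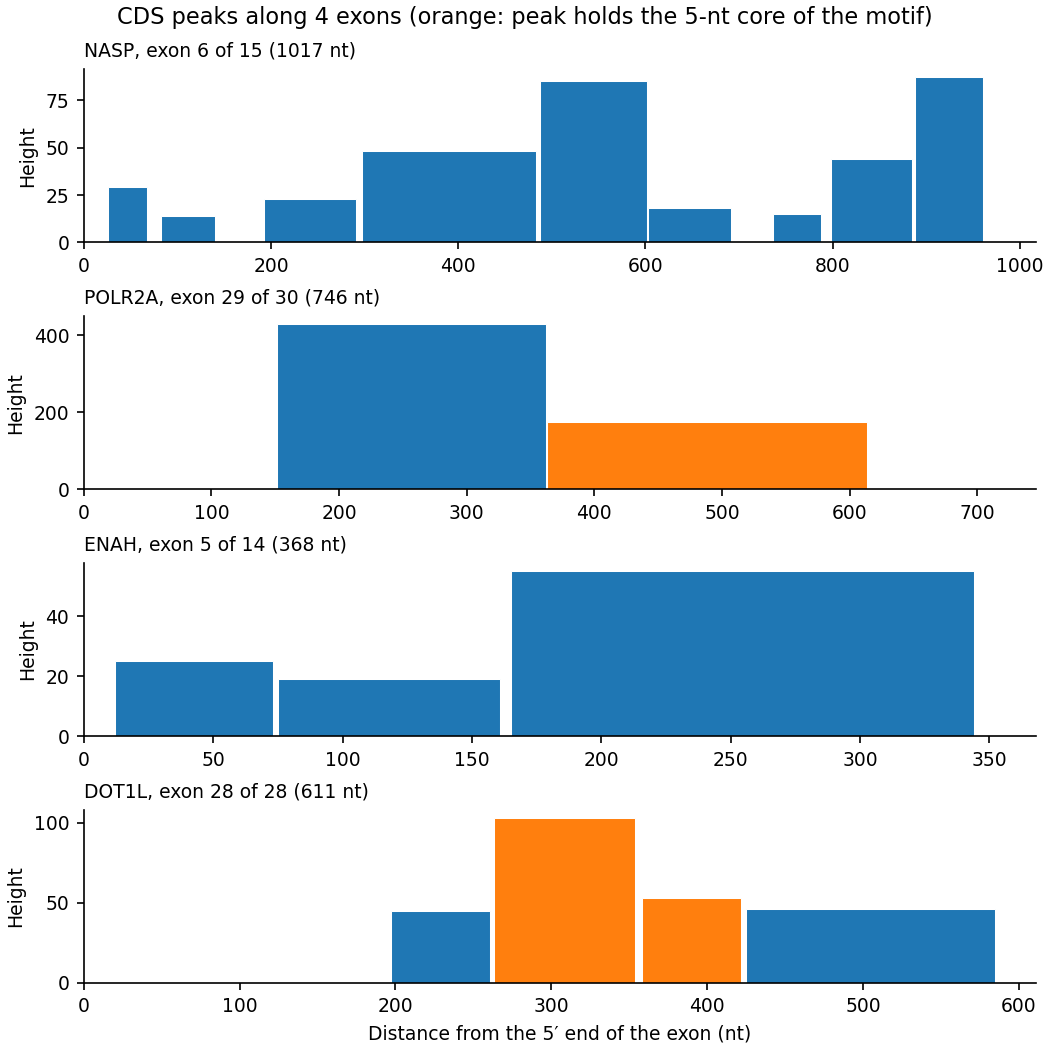
CDS peaks along 1 exon each of NASP, POLR2A, ENAH and DOT1L, with each bar spanning the peak from its distance to the 5′ end of the exon (nt) and rising to the peak height. Orange bars are peaks with CTAAC, and the 9 NASP peaks, of 14 to 87, extend over most of the 1017 nt of the exon.

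Most genes with a CDS peak were also bound elsewhere. An intronic peak on the strand was present in 180 of the 259 genes (69.5%, 63.6 to 74.8%), a boundary peak in 77 (29.7%) and a 3′UTR peak in 52 (20.1%). In 56 genes (21.6%, 17.0 to 27.0%) every peak was a CDS peak. TRO and ABCC10 were examples, with 4 and 3 CDS peaks and no other. For scale, 73.7% of all nuclear peaks were intronic. The same shares over all genes with a peak were not computed, so these counts do not set genes with a CDS peak apart. Genes with a CDS peak had long coding sequences, with a median of 2560.5 nt in the canonical transcript against 1281 nt over all coding genes.

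Groups of genes with functions in the cytoskeleton, splicing and chromatin held CDS peaks at shares above the background of 1.31% of all protein-coding genes, but with few members each. Of 52 actin filament and myosin genes 7 had a CDS peak (13.5%), with heights of 34 for the cytolinker PLEC and 26 for VCL, the vinculin of focal adhesions. Of 48 splicing factors 6 had one (12.5%), led by HNRNPH1 (129) and ARGLU1 (66). Of 44 chromatin remodelling and histone modifying genes 5 had one (11.4%), with heights of 86 for SMARCC2 and 48 for PBRM1, a subunit of the PBAF complex. The lists are selections and not complete: that of chromatin genes does not hold DOT1L (103), nor that of actin genes ENAH (55). Among the listed genes of these 3 groups, a single gene, the splicing factor SON, had a CDS peak with ACTAAC. Expression in mesHMLE cells and CDS length, which differ between such groups, were not taken into account.

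Of the listed extracellular matrix and integrin genes, 3 of 36 had CDS peaks (8.33%). Heights were 22 for the fibrillin FBN2 and 20 for the collagen COL1A1, both matrix components. The list does not hold AGRN (36), LTBP2 (26), ITGA2B (22), ITGA10 (19) or COL4A5 (12), which had CDS peaks too. Endocytosis and trafficking genes also had 3 of 36, with MYOF, a membrane repair protein, at 32 and SPAG9, a scaffold of kinase and motor proteins, at 21. Kinesins had 2 of 39 (5.13%), KIF22 at 24 and KIF18B at 20, and cell junction and polarity genes 1 of 34 (2.94%), F11R at 35, a tight junction protein. Genes of the C2H2 zinc finger family named ZNF had 7 of 508 (1.38%), close to the background, led by ZNF283 (85) and ZNF410 (38), each with a peak only 6 nt wide at the end of an exon. The F11R and ZNF410 peaks each also overlapped another protein-coding gene on the strand, so their genes are uncertain. No CDS peak fell in the 86 ribosomal protein genes, the 64 replication-dependent histone genes, the 24 translation factors or the 27 EMT transcription factors and markers examined, although at 1.31% the number in each of these lists would also be small.

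Several genes of the study's splicing events also had CDS peaks, among them ENAH with the 6 peaks of 16 to 55 given above. ARGLU1 and LMO7, given with them, are not named in the text of the study. Whether the peaks lay in the exons of those splicing events was not tested. MPRIP, a scaffold that binds myosin phosphatase and actin, had CDS peaks of 11, 17 and 12 among the 51 peaks of the gene, 39 of which were intronic and 9 in the 3′UTR. ARGLU1, a splicing modulator, had CDS peaks of 15, 45 and 66 among 25 peaks. LMO7 had a CDS peak of 16, MYOF one of 32, CLSTN1 one of 23 and DEPDC1 one of 19, which held CTAAC. The MYOF and CLSTN1 peaks and the ARGLU1 peaks of 45 and 66 were in exons overlapped by no intron of the gene. None of the CDS peaks in these 6 genes or in ENAH held ACTAAC.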

How the data were processed

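Per the labels and the study's methods, the authors trimmed reads with cutadapt 1.3, mapped them to hg19 with TopHat2 2.0.10, collapsed duplicates by barcode, filtered on mapping quality with SAMtools, combined all immunoprecipitation libraries and ran MACS2 strand by strand against size-matched input, version 2.1.1.20160309. The deposited list gives position, strand, summit and height, the height being a signal of the pooled libraries written by the authors as a whole number, used here only within the list. Its starts were read as counted from 0 and are printed counted from 1. The 18 mitochondrial peaks were left out. Spliced alignments, the filter on mapping quality and pooling affect which coding positions can hold a peak.

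Sequence was GRCh37 and gene models GENCODE 44 placed on that build, with 1 transcript per peak taken as MANE Select, then canonical, then longest CDS. Boundary peaks crossed an exon edge of 1 basic coding transcript. Shares carry 95% Wilson intervals. Odds ratios had 0.5 added to each cell and used Fisher's exact test, two-sided, or an exact McNemar test, with Benjamini-Hochberg adjustment over 11 tests and 0.05 as threshold. Members, gene lists and tests were chosen with earlier results of these data known. Named were the 10 genes with the tallest CDS peaks, the 5 with most, the 8 tallest with ACTAAC and the 5 tallest in skipped exons. Also named were up to 2 members of each of 12 gene lists, genes of the study's splicing events, ARGLU1 and LMO7. Further genes were named after their values were seen (ADGRG6, SON, TRO, ABCC10, AGRN, LTBP2, ITGA2B, ITGA10, COL4A5 and the remaining motif genes). A gene that this rule names and some sequences are not reported here. Python 3.11.15, numpy 2.4.6, scipy 1.17.1, pysam 0.24.0, matplotlib 3.10.9 and samtools 1.23.1 were used, and functions were tested on simulated data.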

Additional observations from a re-analysis of the deposited data

How the results depend on the processing

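No paired analysis was possible because the libraries were pooled before peaks were called, so no value carries a replicate number. Of 102 recomputed values, 82 kept their direction and their side of the threshold, or stayed within 1.5 times for counts. These leave out the merging of overlapping peaks, which changed nothing, as 0 touched or overlapped. With peaks of height 23 or more, 168 peaks in 135 genes remained. The discordant ratio against same-exon windows was then 13.0 (exact McNemar test, adjusted p = 0.083) and not 17.0, the motif odds ratios were 0.779 against 3′UTR and 0.549 against intronic peaks, and the summit odds ratio was 15.9 (adjusted p = 0.098). Without peaks overlapping another intron or UTR, 205 peaks in 165 genes remained, with a discordant ratio of 9.0, odds ratios of 0.812 for height against intronic peaks and 2.37 for the motif by height, and a summit odds ratio of 15.0 (Fisher's exact test, adjusted p = 0.18), and the comparison of skipped exons could not be made because none remained. Height against intronic peaks was 0.935 with peaks assigned by their centre. The summit odds ratio was 14.5 with 1 peak per gene. The frame odds ratio, 0.94 and never past the threshold, turned to 1.02 with the height filter, 1.01 by centre, 1.26 without other introns and UTRs and 1.05 after merging. The cause of these shifts was not tested. Merging within 50 nt, the CTAAC motif and the limit to canonical coding exons were chosen after seeing the data. The first gave 237 peaks and a summit odds ratio of 16.1 (Fisher's exact test, adjusted p = 0.096). Leaving out NASP, the gene with most peaks, lost no call. The list holds no read depth, so the absence of a peak from a coding exon cannot be read as absence of binding.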
